A study of Homo sapiens with 12 samples.

Results

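The breast cancer stem cell markers described here are 10 genes that are used together with CD44 to define or maintain tumour cells with stem cell properties. CD24, EPCAM and PROM1 encode surface proteins, ALDH1A1, ALDH1A2 and ALDH1A3 encode retinaldehyde dehydrogenases, and SOX2, SOX9, KLF4 and BMI1 encode nuclear regulators of stem cell programmes. The genes were chosen by name and not by a measured value, CD44 itself was left out, and all 10 were found by their Ensembl identifiers among the 58381 genes of the count table. Of these 10, 7 passed a filter on low counts (a normalised read count above 1 CPM, the count scaled to the library total, in at least 2 of the 12 libraries) and were tested among 15836 genes. The filter can be passed through 1 group with a high level, so the 7 tested genes do not stand for the whole set. ALDH1A1, ALDH1A2 and PROM1 did not pass it and are described by their counts.

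RNA from 2 human cell lines of triple negative breast cancer, Hs578T and MDA-MB-231, was sequenced to find which genes respond to the loss of CD44, a receptor for the matrix polysaccharide hyaluronan. The 4 groups, with 3 libraries each, were CD44 WT cells and CD44 KO cells, in either line. All cells carried a doxycycline-inducible Cas9 and were kept in low serum before RNA was taken. CD44 KO cells had received guide RNAs to exons 1 and 5 of CD44 and were sorted as CD29+/CD44-, whereas CD44 WT cells had received the transfection reagent only and were sorted as CD29+/CD44+. Both are sorted populations and not single clones. Whether the libraries within a group stem from separate cultures is not stated, so every p below measures only the spread between these libraries.

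In breast cancer, cells with high CD44 and low or no CD24 at their surface have been enriched for the capacity to seed tumours, often within an EPCAM-positive gate. High aldehyde dehydrogenase activity marks another, partly overlapping population. The ALDH1A enzymes behind that activity turn retinaldehyde into retinoic acid, which acts through the nuclear receptors RAR and RXR. SOX2 and KLF4 belong to the factors that can reprogram cells to pluripotency, SOX9 keeps luminal progenitors of the mammary gland, and BMI1 is a subunit of Polycomb repressive complex 1 that supports self-renewal.

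CD44 itself, the targeted gene, was read first. It lay between 494 and 527 CPM in Hs578T CD44 WT and between 24.9 and 28.6 CPM in Hs578T CD44 KO. In MDA-MB-231 it lay between 360 and 363 CPM in CD44 WT and at 40.3 CPM or less in CD44 KO, so that in each line the labels matched the gene. Total counts per library ranged from 10257586 to 19725543, and MDA-MB-231 CD44 WT replicate 1 lay farther from its group than any other library (mean chi-square per gene of 20.5 and 31.2). The epithelial identity of the lines was partial: the keratin genes KRT8 and KRT18 averaged between 307 and 631 CPM in the 4 groups, while E-cadherin (CDH1) averaged at most 0.658 CPM and the mesenchymal filament gene VIM at least 3862 CPM. Of the receptors whose absence defines triple negative disease, PGR was at 0 counts in all 12 libraries and ESR1 averaged at most 0.928 CPM, while ERBB2 averaged 61.9 to 94.5 CPM. Summed over 5 leukocyte markers, the level was 1.04 to 1.48 CPM in Hs578T CD44 WT and 3.95 to 5.21 CPM in Hs578T CD44 KO, where most of it was PTPRC, and 0.477 to 1.03 CPM in MDA-MB-231, with CD3E at 0.520 and 0.323 CPM and CD14 at 0.347 and 0.112 CPM in Hs578T. Summed over 4 endothelial markers it was 11.9 to 14.3 CPM in Hs578T CD44 WT, 16.5 to 17 CPM in Hs578T CD44 KO, 6.17 to 9.71 CPM in CD44 WT cells of MDA-MB-231 and 14.1 to 15.6 CPM in their CD44 KO cells. The part of these markers in the results below was not tested.

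CD24 and BMI1 were the 2 marker genes that passed the test of CD44 KO against CD44 WT in a line. The 250 bases before a RefSeq start site of each (GRCh38.p14) are shown because these stretches lie before an annotated start of each gene, while the counts are per gene and do not tell which start was used. Capitals mark the GC box, GGGCGG or CCGCCC on either strand, which Sp and KLF factors can bind. The CD24 stretch is chr6:106975628-106975877 on the minus strand and ends at the start of the gene in the annotation used for counting, and the BMI1 stretch is chr10:22320849-22321098 on the plus strand and ends before the annotated gene start.
CD24: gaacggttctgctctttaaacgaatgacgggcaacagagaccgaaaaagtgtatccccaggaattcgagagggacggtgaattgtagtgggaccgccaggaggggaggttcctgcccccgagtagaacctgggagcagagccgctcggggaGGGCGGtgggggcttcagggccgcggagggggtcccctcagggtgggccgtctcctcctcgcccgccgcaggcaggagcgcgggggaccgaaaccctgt
BMI1: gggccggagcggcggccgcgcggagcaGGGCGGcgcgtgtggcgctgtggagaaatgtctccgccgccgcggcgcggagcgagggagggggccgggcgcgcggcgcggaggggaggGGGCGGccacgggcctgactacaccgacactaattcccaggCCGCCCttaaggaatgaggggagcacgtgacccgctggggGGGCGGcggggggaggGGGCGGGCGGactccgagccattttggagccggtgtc
The CD24 stretch held 1 GC box, 65.6% G or C and 20 CpG, and the BMI1 stretch held 6 GC boxes, some of which overlap, 76.8% G or C and 35 CpG. The table lists other start sites for both genes. For CD24 these begin at 106975465 (0 GC boxes, 73.2% G or C and 27 CpG) and 106974039 (1 GC box, 64.0% and 17 CpG), and for BMI1 at 22321956 (5 GC boxes, 91.6% and 54 CpG). Among 34943 start sites of the same table, 42.5% held a GC box in these 250 bases, the median G or C content was 58.0% and the median number of CpG was 11. Entries were found for 8 of the 10 marker genes, with 15 start sites in all. EPCAM and SOX9 have no entry in that table.

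Levels of different genes were compared per exonic length, in CPM per kb. The same 4 genes led in Hs578T before and after CD44 loss. In Hs578T CD44 WT, CD24 stood first at 43.8 ± 12.3 CPM per kb (mean ± SD, n = 3, as for all group values). SOX9 followed at 13.9 ± 0.441, KLF4 at 10.6 ± 3.51 and BMI1 at 8.03 ± 0.845 CPM per kb. The libraries of SOX9 and KLF4 overlapped, as did those of KLF4 and BMI1, so only the place of CD24 was beyond the spread. The other 6 genes averaged at most 0.0719 CPM per kb there. In Hs578T CD44 KO, CD24 still stood first, at 16.6 ± 0.913 CPM per kb, without overlap with SOX9 at 13.5 ± 1.17.

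MDA-MB-231 showed another order. SOX9 stood first in CD44 WT at 24.8 ± 4.48 CPM per kb, above BMI1 at 10.3 ± 1.39, KLF4 at 7.34 ± 1.66 and EPCAM at 7.0 ± 1.7. Libraries of KLF4 and EPCAM overlapped, as did those of BMI1 and KLF4. BMI1 shares 1000 of its 4283 exonic bases with the readthrough gene COMMD3-BMI1 on the same strand, and fragments that fit several genes were not counted, so these per-kb values of BMI1 are too low. Over the 3283 bases that it does not share, a length chosen after seeing the data, BMI1 stood at 13.4 ± 1.81 CPM per kb here and did not overlap with KLF4, and in Hs578T CD44 WT it lay between 9.25 and 11.4 CPM per kb, within the libraries of KLF4. ALDH1A3 at 1.36 ± 0.17 and CD24 at 1.03 ± 0.0478 CPM per kb came next and did not overlap, above SOX2 at 0.493 ± 0.222. The order was the same in MDA-MB-231 CD44 KO, with BMI1 at 17.3 ± 1.13 CPM per kb (22.6 ± 1.48 over its unshared bases) and KLF4 at 8.23 ± 2.89, without overlap.

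**Figure D1:**
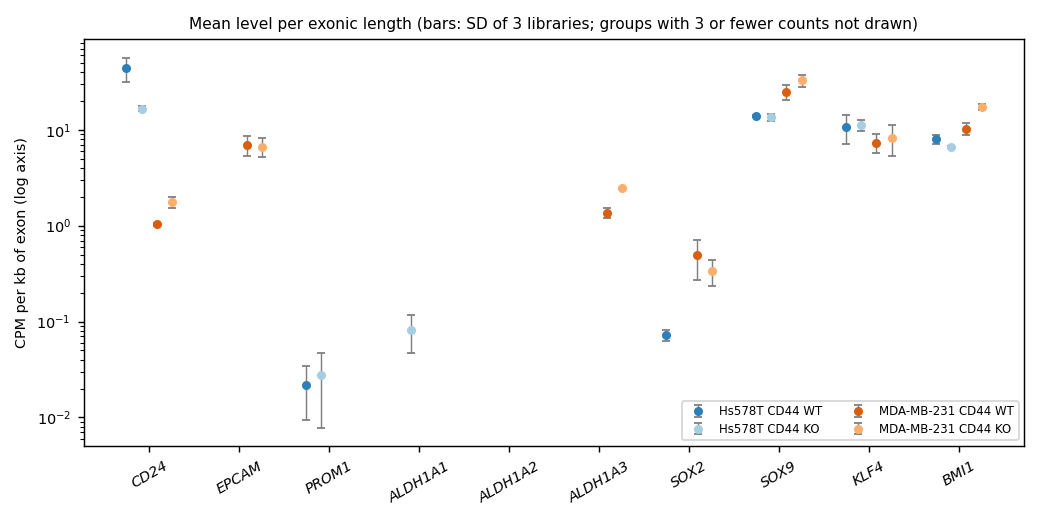
Mean level of each marker gene in CPM per kb of exon on a log axis, by group, with bars for the SD of 3 libraries. CD24 is the top gene of both Hs578T groups (43.8 and 16.6 CPM per kb), SOX9 of both MDA-MB-231 groups (24.8 and 32.9 CPM per kb), and groups in which a gene had 3 or fewer counts are not drawn.

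Most tested genes differed between the CD44 WT cells of the lines. Between Hs578T CD44 WT and MDA-MB-231 CD44 WT, 5 of the 7 tested marker genes passed an adjusted p of at most 0.01 (quasi-likelihood test of edgeR, p adjusted by Benjamini-Hochberg over all genes tested), where 61.5% of all tested genes passed (32.2% higher and 29.4% lower in Hs578T). The same 5 had groups without overlap, as had 71.8% of all tested genes. Of these 5, EPCAM, ALDH1A3 and SOX2 exceeded 1 CPM in MDA-MB-231 libraries only, so they passed the filter through the line where they are high. Their lower level in Hs578T follows in part from that filter, and 5 of 7 cannot be weighed against the shares of all tested genes. CD24 was higher in Hs578T by 5.41 on the log2 scale (SE 0.202, adjusted p = 3.69e-12). SOX9 was lower there by a log2 difference of -0.84 (SE 0.133, adjusted p = 3.73e-05) and SOX2 by -2.71 (SE 0.536, adjusted p = 4.66e-04). EPCAM and ALDH1A3 had 2 counts each over the 3 Hs578T CD44 WT libraries against 622 and 277 counts over the 3 MDA-MB-231 CD44 WT libraries. Their levels were thus 339-fold (95% counting interval 93.4 to 2805) and 151-fold (41.4 to 1253) higher in MDA-MB-231, and these intervals cover counting error only. KLF4 (log2 difference 0.53, adjusted p = 0.067, but 1.53e-04 without the filter on low counts) and BMI1 (-0.35, adjusted p = 0.0113) did not pass. Without MDA-MB-231 CD44 WT replicate 1, the log2 difference of BMI1 was -0.46 with an adjusted p of 6.63e-04, and over all alternatives it ranged from -0.46 to -0.24 with an adjusted p of up to 0.132.

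Between CD44 KO and CD44 WT, 1 marker gene passed the test in each line, CD24 in Hs578T and BMI1 in MDA-MB-231. In Hs578T, 1 of 7 passed, CD24, with a lower level in CD44 KO, against 7.51% of all tested genes (3.64% higher and 3.86% lower). In MDA-MB-231, 1 of 7 passed, BMI1, with a higher level, against 4.62% of all tested genes (1.97% higher and 2.65% lower). The change differed between the lines for 2 of 7, CD24 and BMI1, both lower in Hs578T, against 4.12% of all tested genes (2.33% higher and 1.79% lower), by the test of the difference of both changes in the same fit. For EPCAM, ALDH1A3 and SOX2 this difference rests on 3 or fewer counts in a Hs578T group, which leaves 4 of the 7. A Hs578T fold could be given for 5 of the 7, and of these 3 (CD24, SOX2 and BMI1) had all CD44 KO libraries below all CD44 WT libraries, an absence of overlap that 37.3% of all tested genes showed in 1 direction or the other. In MDA-MB-231, 3 of 7 (CD24, ALDH1A3 and BMI1) had all CD44 KO libraries above all CD44 WT libraries, where 25.5% of all tested genes did not overlap. The genes with a fold had medians on the log2 scale of -0.29 (Hs578T) and 0.41 (MDA-MB-231), beside -0.00 and -0.01 over all tested genes.

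**Figure D2:**
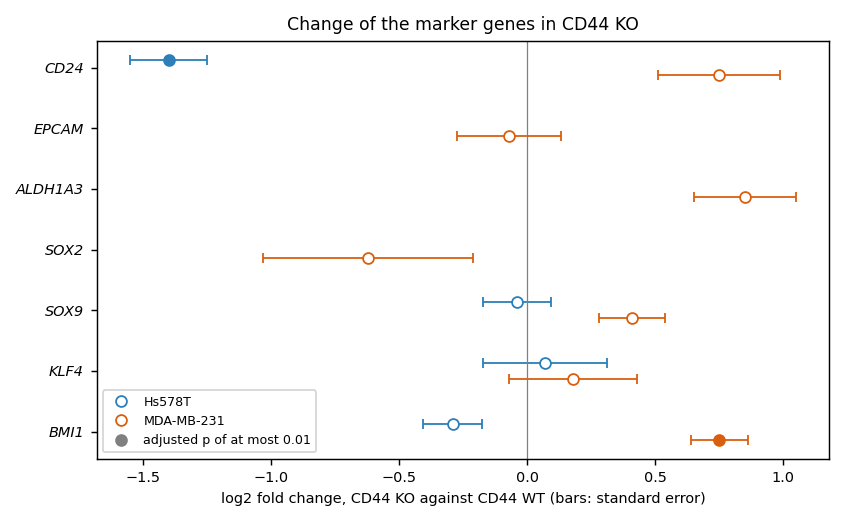
Log2 fold change of CD44 KO against CD44 WT for the marker genes with a fitted fold in each line, with bars for the standard error and filled points at an adjusted p of at most 0.01. CD24 in Hs578T (-1.40) and BMI1 in MDA-MB-231 (0.75) are the filled points, and CD24 and BMI1 lie to the left of 0 in Hs578T and to the right of it in MDA-MB-231.

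CD24 (chromosome 6, 106969831 to 106975627, minus strand, GRCh38 with the GENCODE 28 annotation, as for the positions below) encodes a small glycosylated surface protein anchored by glycosylphosphatidylinositol, and its low level beside high CD44 is the classic surface sign of breast cancer stem cells. It fell with CD44 in Hs578T. CD24 measured 178, 124 and 105 CPM in Hs578T CD44 WT replicates 1, 2 and 3 and 48.8, 51.2 and 54.4 CPM in Hs578T CD44 KO replicates 1, 2 and 3. All CD44 KO libraries lay below the lowest CD44 WT library, and the CD44 WT libraries spread more widely (SD 38.1 CPM) than the CD44 KO libraries (SD 2.83 CPM). The log2 fold change was -1.40 (SE 0.151, adjusted p = 1.76e-05), a 2.64-fold lower level. With each of the 12 libraries left out in turn it stayed between -1.56 and -1.15, the latter without CD44 WT replicate 1, the library with the highest level, and the adjusted p was at most 2.83e-04. For 3 against 3 libraries, an exact two-sided permutation test of a single gene cannot go below p = 0.1. A lower CD24 level in bulk RNA can come from fewer cells with CD24 or from less CD24 RNA per cell, and these cannot be told apart here, for this gene or for those below. PTPRC, a leukocyte gene, averaged 0.369 CPM in Hs578T CD44 WT and 3.78 CPM in Hs578T CD44 KO, and its part in the CD24 result was not tested.

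In MDA-MB-231, where the CD44 WT level was 42.6-fold lower, the CD44 KO libraries lay above the CD44 WT libraries. CD24 measured 3.17, 3.33 and 3.03 CPM in CD44 WT replicate 1, replicate 3 and the library without a number, and 5.68, 4.66 and 6.02 CPM in CD44 KO replicates 1, 2 and 3. The log2 fold change of 0.75 (SE 0.239) did not pass (adjusted p = 0.0612). It passed without Hs578T CD44 WT replicate 1 (adjusted p = 0.00851) and without the filter on low counts (0.00134), and the adjusted p ranged up to 0.182 over all alternatives. The difference of the changes, Hs578T minus MDA-MB-231, was -2.15 (SE 0.281, adjusted p = 1.60e-04). CD24 has processed pseudogenes of near-identical sequence, and fragments that aligned to several places were not counted, so the counts may miss part of its RNA. Over the 11 tested genes within 1 Mb of CD24, the median log2 fold change was 0.02 for Hs578T. Of these, 0 passed in Hs578T by edgeR, 0 by DESeq2 and 2 had an unadjusted p under 0.05.

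EPCAM (chromosome 2, 47345158 to 47387601, plus strand), an epithelial adhesion molecule at cell contacts, was detected at more than single counts only in MDA-MB-231. It had 2 counts over the Hs578T CD44 WT libraries and 2 over the Hs578T CD44 KO libraries, so no fold is given. In MDA-MB-231 it measured 22.2, 17 and 13.7 CPM in CD44 WT replicate 1, replicate 3 and the library without a number. The CD44 KO replicates 1, 2 and 3 measured 20.8, 13.8 and 15.8 CPM. The groups overlapped, and the log2 fold change was -0.07 (SE 0.204, adjusted p = 0.895). Its sign turned when CD44 KO replicate 2 (0.06) or CD44 WT replicate 1 (0.12) was left out. In Hs578T, where EPCAM was near 0, 7 of 15 tested genes within 1 Mb of it were lower in CD44 KO, and the median log2 fold change over all 15 was -0.42. Over all tested genes, 3.86% were called lower in that line and the median was -0.00.

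PROM1 (chromosome 4, 15963076 to 16084378, minus strand), the membrane protein CD133, was near the limit of detection. It had 1, 2 and 3 counts in Hs578T CD44 WT replicates 1, 2 and 3 and 2, 6 and 1 counts in the CD44 KO replicates, and the levels of 0.0694 to 0.254 CPM and 0.0853 to 0.370 CPM overlapped. No count was found in any of the 6 MDA-MB-231 libraries, which allows up to 3 counts, or 0.0395 CPM.

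**Figure D3:**
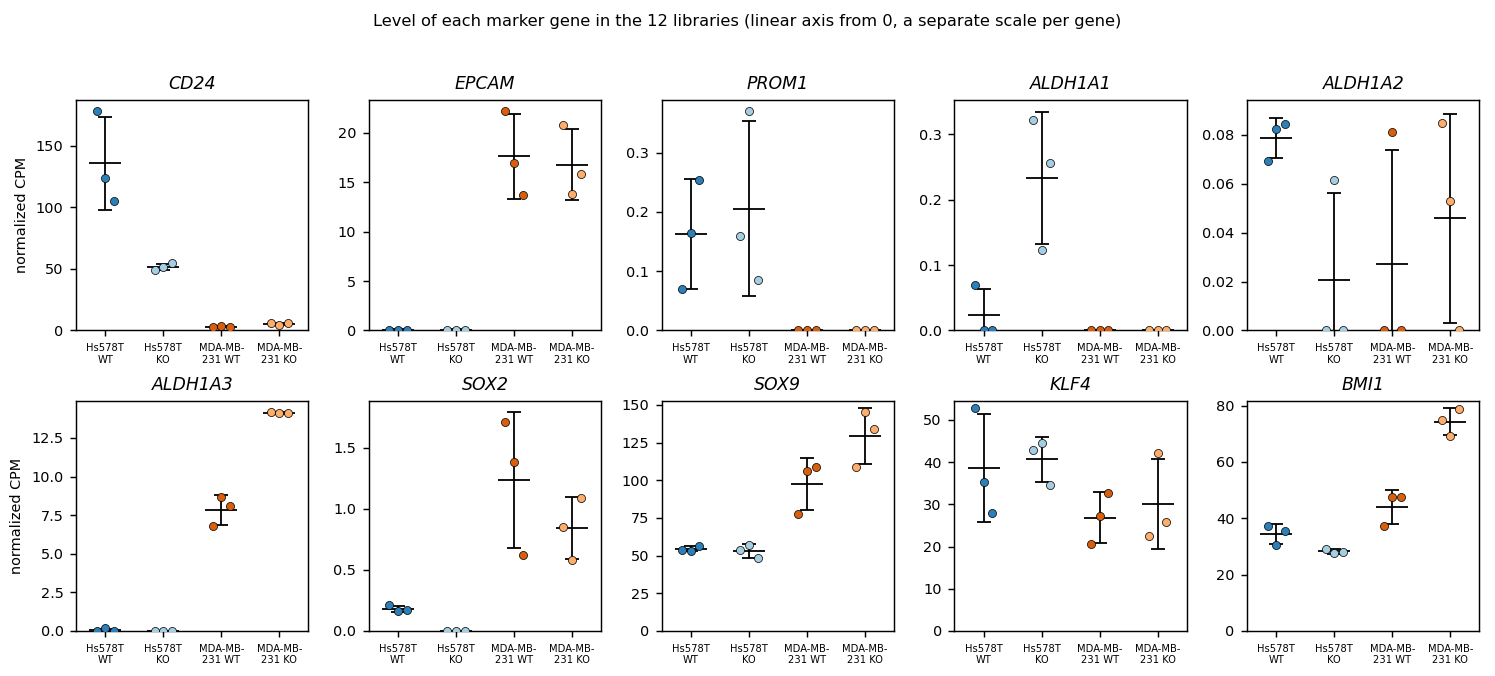
Normalized CPM of the 10 marker genes in each of the 12 libraries, on linear axes from 0 with a separate scale per gene. Points are libraries, and the horizontal marks and bars are the mean and SD of 3. CD24 drops from 105 to 178 CPM to 48.8 to 54.4 CPM in Hs578T, ALDH1A3 and BMI1 are separated between the MDA-MB-231 groups, and ALDH1A1, ALDH1A2 and PROM1 stay at or below 0.370 CPM in all libraries.

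Among the retinaldehyde dehydrogenases, ALDH1A3 (chromosome 15, 100877714 to 100916626, plus strand) was the only 1 of the 3 with a mean level above 1 CPM in any group, and it had that level in MDA-MB-231 only. It measured 6.77, 8.68 and 8.11 CPM in MDA-MB-231 CD44 WT replicate 1, replicate 3 and the library without a number. In CD44 KO it measured 14.2, 14.1 and 14.1 CPM in replicates 1, 2 and 3, all above the CD44 WT libraries. The log2 fold change of 0.85 (SE 0.20) missed the threshold, with an adjusted p of 0.0162. DESeq2 gave 0.86 with an adjusted p of 6.16e-04, a fit of MDA-MB-231 alone gave 0.00983 and the fit without the filter on low counts 8.59e-04. Without Hs578T CD44 WT replicate 2, the library with the 2 ALDH1A3 counts of Hs578T, it was 0.00988, and the largest adjusted p of all alternatives was 0.0827. In Hs578T these 2 counts stood against 0 counts in CD44 KO, and no fold is given. Of 17 tested genes within 1 Mb of ALDH1A3, 3 were higher in MDA-MB-231 CD44 KO, LRRK1 (0.57), CHSY1 (0.61) and SELENOS (0.43), and the median of the 17 log2 fold changes was 0.23. Over all tested genes, 1.97% were called higher in that line and the median was -0.01.

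ALDH1A1 (chromosome 9, 72900662 to 73080442, minus strand) and ALDH1A2 (chromosome 15, 57953424 to 58497866, minus strand) were at or near 0. ALDH1A1 had 1, 0 and 0 counts in Hs578T CD44 WT and 4, 2 and 3 counts in Hs578T CD44 KO, replicates 1, 2 and 3. The groups did not overlap, and the ratio of levels was 8.55 with a 95% counting interval of 1.18 to 375. It had 0 counts in the 6 MDA-MB-231 libraries. ALDH1A2 had 3, 1, 1 and 2 counts over Hs578T CD44 WT, Hs578T CD44 KO, MDA-MB-231 CD44 WT and MDA-MB-231 CD44 KO. Within 1 Mb of ALDH1A1, 2 of 6 tested genes were higher in Hs578T CD44 KO, GDA (2.63, adjusted p = 1.43e-04) and ANXA1 (1.29, adjusted p = 0.00381). Over all tested genes, 3.64% were called higher in that line.

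Other aldehyde dehydrogenases, which act mostly on aldehydes other than retinaldehyde, held 3 calls in Hs578T. Of 16 such genes, 13 were tested. In Hs578T 3 were higher and 0 lower in CD44 KO, beside 3.64% and 3.86% of all tested genes. These 3 were ALDH1L2 (log2 fold change 0.63, adjusted p = 2.47e-04), ALDH6A1 (0.94, 0.00208) and ALDH7A1 (0.36, 0.00891). ALDH1L2, a mitochondrial folate enzyme, rose from 128 ± 3.43 to 199 ± 5.47 CPM. ALDH6A1, of valine breakdown, rose from 12.3 ± 0.981 to 23.5 ± 3.83 CPM. It lost the call without CD44 KO replicate 2 or CD44 WT replicate 1 of Hs578T, with adjusted p up to 0.0168. ALDH7A1, of lysine breakdown, lost its call in 12 of 20 alternatives. In MDA-MB-231 edgeR called 0 of the 13, DESeq2 0, and 2 had an unadjusted p under 0.05, and the median log2 fold change of the list was 0.06 in both lines.

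In the retinoic acid pathway 4 genes were lower in Hs578T CD44 KO, where 3.86% of all tested genes were called lower. In MDA-MB-231 CD44 KO 1 gene was higher, where 1.97% of all tested genes were called higher. Of 19 genes of retinol uptake, oxidation, binding, response and breakdown, 12 were tested. The median log2 fold change of the 12 was -0.35 for Hs578T and -0.04 for MDA-MB-231. RARB, a retinoic acid receptor and itself a well known target of retinoic acid, measured 1.89 to 2.43 CPM in Hs578T CD44 WT (median 2.37) and 0.0802 to 0.185 CPM in Hs578T CD44 KO (median 0.171). Its log2 fold change was -3.83 (SE 0.377, adjusted p = 7.31e-06) on 86 and 6 counts. CRABP2, which carries retinoic acid to the nucleus, fell from 22.2 ± 11.3 to 3.56 ± 1.28 CPM (-2.62, SE 0.341, adjusted p = 9.19e-05). RDH10, which makes retinaldehyde from retinol, fell from 58.1 ± 12.3 to 35.7 ± 2.88 CPM (-0.71, adjusted p = 0.0051). This call was lost when any single Hs578T library other than CD44 WT replicate 3 was left out, with adjusted p up to 0.0384. CYP26B1, which degrades retinoic acid, went from 33 counts over the Hs578T CD44 WT libraries to 3 counts in CD44 KO, all in replicate 2, an 11.6-fold lower level (95% counting interval 3.63 to 59.0, adjusted p = 0.00131). Without that replicate the fitted log2 fold change went from -3.37 to -6.45.

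In MDA-MB-231 RARB was higher in CD44 KO. RARB measured 0.514 to 0.713 CPM in CD44 WT (median 0.568) and 1.58 to 2.03 CPM in CD44 KO (median 1.80), without overlap. The log2 fold change was 1.59 (SE 0.308, adjusted p = 0.00403) on 21 and 74 counts. The call was lost in 7 of 20 alternatives, among them a fit of MDA-MB-231 alone (adjusted p = 0.0176) and the fits without CD44 KO replicate 1 or 2 or CD44 WT replicate 1 or 3 of that line (up to 0.0202). CRABP2 averaged 5.38 ± 1.43 and 11.9 ± 0.717 CPM, without overlap, at a log2 fold change of 1.15 that did not pass (adjusted p = 0.044), while DESeq2 gave 0.00833 and all alternatives together 1.21e-07 to 0.178. The difference between the lines passed for 4 of the 12 genes, all lower in Hs578T: RARB, CRABP2, CYP26B1 and DHRS3. Of all tested genes, 1.79% were called lower by this test. CYP26B1 and DHRS3 rest on 3 counts in 1 group each, and DHRS3, a reductase that returns retinaldehyde to retinol, was singled out after its values were seen. RXRB, at 3.35 CPM in Hs578T CD44 WT, had 0 counts in MDA-MB-231 CD44 WT and 1 count in CD44 KO. Fragments with several alignments were not counted, and their part in this value was not tested.

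SOX2 (chromosome 3, 181711924 to 181714436, plus strand), a pluripotency factor, was scarce in both lines. In Hs578T CD44 WT it had 3, 2 and 2 counts in replicates 1, 2 and 3, and in the 3 CD44 KO libraries 0 counts. Set against the 3 counts that 0 allows over the group, the level was 2.46-fold lower. This ratio leaves out the counting error of CD44 WT and is not a lower limit. The test did not pass (adjusted p = 0.0484). In MDA-MB-231 it measured 1.71, 1.38 and 0.624 CPM in CD44 WT replicate 1, replicate 3 and the library without a number and 0.847, 0.583 and 1.09 CPM in CD44 KO, with overlap (log2 fold change -0.62, SE 0.410, adjusted p = 0.399).

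SOX9 (chromosome 17, 72121020 to 72126420, plus strand), a factor of progenitor cells and of cartilage, was among the more abundant marker genes. It measured 53.8, 53.3 and 56.5 CPM in Hs578T CD44 WT and 53.8, 57.3 and 48.2 CPM in Hs578T CD44 KO, replicates 1, 2 and 3 (log2 fold change -0.04, SE 0.133, adjusted p = 0.904). In MDA-MB-231 it measured 77.4, 106 and 109 CPM in CD44 WT replicate 1, replicate 3 and the library without a number. The CD44 KO replicates 1, 2 and 3 measured 109, 145 and 134 CPM. Replicate 1 of CD44 KO met the highest CD44 WT library, and the log2 fold change of 0.41 (SE 0.13) did not pass (adjusted p = 0.0629). Without the filter on low counts it passed (0.00395), and with 1 library left out it lay between 0.26 (without CD44 WT replicate 1) and 0.52 (without CD44 KO replicate 1), with adjusted p up to 0.255 (without CD44 KO replicate 2). The difference between the lines was -0.44 (SE 0.186, adjusted p = 0.15).

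Of the other SOX factors, 10 of 17 were tested and 1 passed, SOX5 in Hs578T. In that line 3.64% of all tested genes were called higher. SOX5, which acts with SOX9 in cartilage, rose from 0.684 ± 0.192 to 2.99 ± 0.521 CPM (log2 fold change 2.12, adjusted p = 0.00101). In MDA-MB-231 edgeR called 0 of the 10, DESeq2 0, and 3 had an unadjusted p under 0.05.

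KLF4 (chromosome 9, 107484852 to 107490482, minus strand), a zinc finger factor of reprogramming and of epithelial differentiation, did not pass any of the 4 tests. It measured 52.9, 35.2 and 27.9 CPM in Hs578T CD44 WT and 42.8, 44.5 and 34.6 CPM in Hs578T CD44 KO, replicates 1, 2 and 3. In MDA-MB-231 CD44 WT it measured 20.6, 27.3 and 32.7 CPM, and in CD44 KO 22.4, 42.2 and 25.7 CPM. Both pairs of groups overlapped, and the log2 fold changes were 0.07 (SE 0.242) and 0.18 (SE 0.250). Each sign turned when 1 library was left out, in Hs578T without CD44 WT replicate 3 (-0.12) and in MDA-MB-231 without CD44 KO replicate 2 (-0.16). Of 16 other KLF genes, 12 were tested. KLF13 was lower in MDA-MB-231 CD44 KO (4.53 ± 0.409 to 2.16 ± 0.564 CPM, log2 fold change -1.04, adjusted p = 0.00704), a call lost in 13 of 20 alternatives. In that line 2.65% of all tested genes were called lower. In Hs578T edgeR called 0 of the 12 and DESeq2 2, and 2 had an unadjusted p under 0.05.

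BMI1 (chromosome 10, 22321211 to 22331484, plus strand), the Polycomb subunit, rose in MDA-MB-231. It measured 37.1, 47.4 and 47.4 CPM in CD44 WT replicate 1, replicate 3 and the library without a number and 74.7, 69.2 and 78.9 CPM in CD44 KO replicates 1, 2 and 3. All CD44 KO libraries lay above all CD44 WT libraries. The log2 fold change was 0.75 (SE 0.111, adjusted p = 4.59e-04), a 1.69-fold higher level, and it lay between 0.64 (without CD44 WT replicate 1) and 0.87 in all alternatives run, with adjusted p values of at most 0.00856. In Hs578T it measured 37.3, 30.4 and 35.5 CPM in CD44 WT and 29.2, 27.6 and 27.9 CPM in CD44 KO, replicates 1, 2 and 3. These groups did not overlap either, but the log2 fold change of -0.29 (SE 0.115) did not pass (adjusted p = 0.115). The difference of the changes, Hs578T minus MDA-MB-231, was -1.04 (SE 0.160, adjusted p = 7.11e-04).

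The neighbours of BMI1 on chromosome 10 had positive log2 fold changes in MDA-MB-231. The 8 tested genes within 1 Mb had log2 fold changes from 0.31 to 0.65 with a median of 0.37, beside -0.01 over all tested genes. Of these 8, 2 passed, MLLT10 (0.43, adjusted p = 0.00969) and PIP4K2A (0.38, adjusted p = 0.00818), where 1.97% of all tested genes were called higher. BMI1 lay above each of the 8 at 0.75. In Hs578T the median of the same genes was 0.03. Whether the position on the chromosome has a part in the BMI1 result was not tested. The counts of BMI1 come from the bases it does not share with COMMD3-BMI1. COMMD3, just before BMI1, had a log2 fold change of 0.31 (adjusted p = 0.206) in MDA-MB-231.

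**Figure D4:**
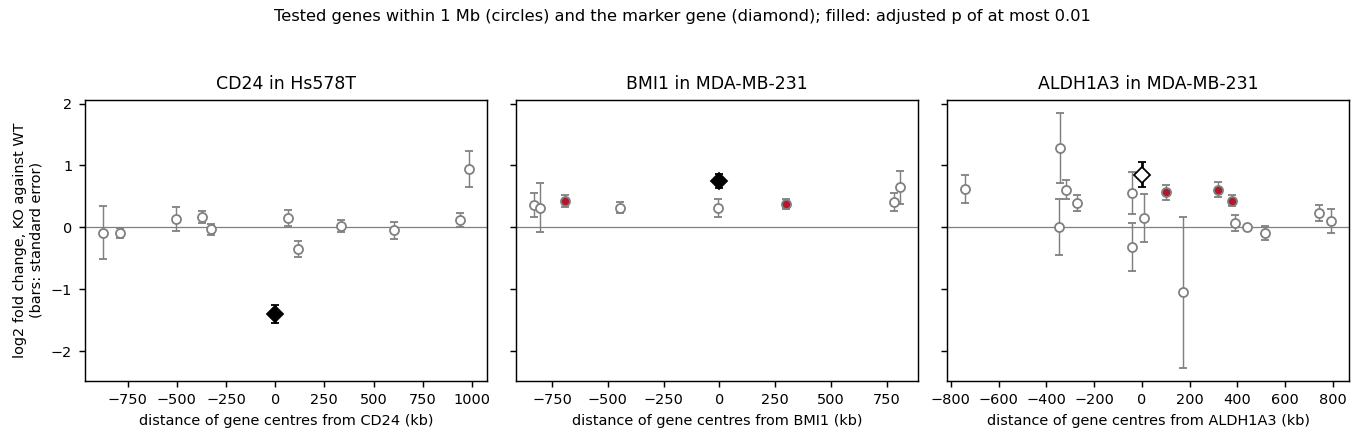
Log2 fold change of CD44 KO against CD44 WT for a marker gene (diamond) and the tested genes within 1 Mb (circles), against the distance between gene centres in kb, with bars for the standard error and filled symbols at an adjusted p of at most 0.01. CD24 in Hs578T (-1.40) lies below its 11 neighbours, which range from -0.35 to 0.94, whereas all 8 neighbours of BMI1 in MDA-MB-231 lie above 0, between 0.31 and 0.65.

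The other Polycomb genes encode subunits of both repressive complexes. Of 23 genes, 21 were tested, and edgeR called 1 in Hs578T and 0 in MDA-MB-231, where DESeq2 also called 0 and 5 had an unadjusted p under 0.05. The medians of the 21 log2 fold changes were 0.01 and 0.04. PCGF1, which takes the place of BMI1 in a variant complex, was lower in Hs578T CD44 KO (19.2 ± 1.47 to 13 ± 1.39 CPM, log2 fold change -0.56, adjusted p = 0.00791). This call was lost in 11 of 20 alternatives. RING1 had 0 counts in all 12 libraries and PCGF2 at most 1 count in a group, and the part of reads with several alignments was not tested.

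Of 15 genes for other surface proteins used to find stem cells, 14 were tested. In MDA-MB-231 2 passed, NGFR and ENG, both higher in CD44 KO, beside 1.97% of all tested genes called higher. In Hs578T 4 passed, MME higher and ITGB3, NGFR and CXCR4 lower in CD44 KO. Of all tested genes, 3.64% were called higher and 3.86% lower in Hs578T. MME, the peptidase CD10 of basal and stromal cells, rose from 9.34 ± 2.97 to 75.8 ± 7.67 CPM (log2 fold change 3.01, adjusted p = 6.20e-07). ITGB3, the beta subunit of the vitronectin receptor, fell from 12.6 ± 3.07 to 3.86 ± 0.987 CPM (-1.71, adjusted p = 4.90e-04). CXCR4, a chemokine receptor, went from 17 counts to 0 counts (adjusted p = 0.00449). Set against the 3 counts that 0 allows over the group, its level was 5.96-fold lower, without the counting error of the 17 counts. Its call was lost without any single Hs578T library other than CD44 WT replicate 3, with adjusted p up to 0.0228.

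NGFR, the neurotrophin receptor CD271, moved in opposite directions, by a difference of -3.13 (adjusted p = 4.12e-05). It fell from 6.45 ± 1.83 to 2.79 ± 0.476 CPM in Hs578T (log2 fold change -1.21, SE 0.226, adjusted p = 0.00206) and rose from 1.33 ± 0.240 to 5.08 ± 0.370 CPM in MDA-MB-231 (1.93, SE 0.260, adjusted p = 2.34e-04). The Hs578T call was lost in 4 of 20 alternatives, among them those without CD44 KO replicate 1 or 2 or CD44 WT replicate 2, with adjusted p up to 0.0151, and the MDA-MB-231 call in 1 of 20. ENG, a TGF-beta coreceptor, rose in MDA-MB-231 from 59.9 ± 11.1 to 98.2 ± 18.5 CPM (0.71, adjusted p = 0.00488), a call lost with a fit of that line alone (adjusted p = 0.0301) and without CD44 KO replicate 1, CD44 WT replicate 3 or the library without a number (up to 0.0239).

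Of 15 pluripotency factors, 8 were tested, and the core factors POU5F1 and NANOG had at most 3 counts in any group. TBX3, a T-box factor of mammary development, fell in Hs578T from 44.8 ± 12.3 to 24.6 ± 1.13 CPM (log2 fold change -0.87, SE 0.157, adjusted p = 0.00161) and rose in MDA-MB-231 from 2.1 ± 0.272 to 7.47 ± 0.306 CPM (1.83, SE 0.229, adjusted p = 1.29e-04). Without Hs578T CD44 KO replicate 2 the Hs578T call was lost, at an adjusted p of 0.0126. TFCP2L1 was lower in MDA-MB-231 CD44 KO (2.99 ± 0.921 to 0.901 ± 0.482 CPM, -1.68, adjusted p = 0.00852) and lost its call in 12 of 20 alternatives. Over all 7 lists, 88 of 119 genes were tested, and 14 passed in Hs578T, 6 in MDA-MB-231 and 9 for the difference between the lines. These are 15.9%, 6.82% and 10.2% of the 88, beside 7.51%, 4.62% and 4.12% of all tested genes, and the lists were not compared with other lists. The lists were chosen with earlier results of these data known, so these shares are a description and no sign of enrichment.

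**Figure D5:**
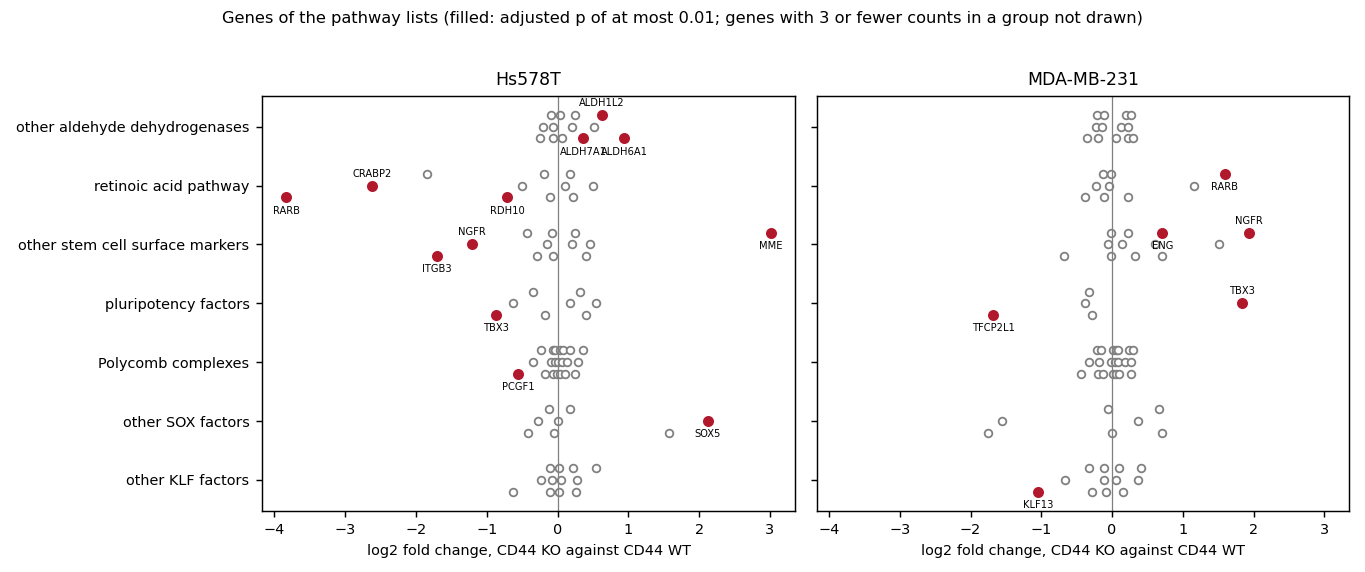
Log2 fold change of CD44 KO against CD44 WT for the tested genes of 7 lists in Hs578T and MDA-MB-231, filled and named at an adjusted p of at most 0.01, with genes of 3 or fewer counts in a group left out. RARB, NGFR and TBX3 lie left of 0 in Hs578T (-3.83, -1.21 and -0.87) and right of 0 in MDA-MB-231 (1.59, 1.93 and 1.83).

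The genes whose log2 CPM followed a marker gene most closely over the 12 libraries are given as a description, since the libraries of a line share their line and a gene that differs between the lines can follow such a pattern for that alone. Among 11227 genes with a mean of at least 5 CPM, FZD7, a WNT receptor, was closest to CD24 (Pearson's r = 0.996), with means of 92.9, 67.9, 20.7 and 23.2 CPM in Hs578T CD44 WT, Hs578T CD44 KO, MDA-MB-231 CD44 WT and MDA-MB-231 CD44 KO. MRM2 and ST3GAL5 came next (both 0.995). SHC3, FREM2 and IRAK3 were closest to ALDH1A3 (each 0.997), ST3GAL1 (0.988), LPIN2 (0.986) and STAM (0.980) to SOX9, and MYO1E (0.955), CEBPB (0.925) and SLC25A36 (0.894) to KLF4. VPS29 (0.998) and BCL2L1 (0.997) were among the 3 closest to EPCAM. For BMI1 the closest was NDC80, a kinetochore gene (0.978), with 113, 102, 122 and 168 CPM in the same order of groups, before OGDH (0.973) and TFAM (0.972).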

How the data were processed

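RNA-seq counts of 12 libraries, 3 in each of 4 groups, were analysed. The authors used HISAT2 2.1.0 to place paired reads of 50 bp on GRCh38 and featureCounts 1.6.2 with the GENCODE 28 annotation for the counts of fragments, by strand, at a mapping quality of at least 10 and without fragments that fit several places or genes. The deposited values are whole-number counts without normalization, beside the exonic length of each gene. Groups came from the sample titles. The column name of 1 MDA-MB-231 CD44 WT library occurs in the descriptions of replicates 2 and 3, so this library carries its group and no replicate number.

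Genes of at least 300 nt that exceeded 1 CPM in 2 or more libraries entered a test with edgeR 4.0.16 in R 4.3.3 (TMM factors, 4 group means, glmQLFit in legacy mode without robust estimation, glmQLFTest, Benjamini-Hochberg adjustment over 15836 genes, threshold 0.01). The methods of the study word the length filter the other way round, as genes under 300 nt. CPM are on the TMM scale. The SE of a log2 fold change was derived from the test statistic. Where a group had 0 counts, the fold is a ratio against 3 counts over that group, without the counting error of the other group. With 1 to 3 counts it is a ratio with an exact 95% binomial counting interval. Levels across genes are per kb of exon. The genes of like pattern used log2 CPM with a prior count of 2. The common biological coefficient of variation was 0.117. Replicates of each group differed by more than counting noise, with a mean chi-square per gene of 4.55 to 31.2, so none was counted as a repeat. The fits were also run on counts simulated with the spread that the model had estimated. That is no test of how well the model describes the real libraries. Total counts of 10257586 to 19725543 limit the precision for genes at few counts.

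The marker genes, the 7 lists and the rule for named genes (all 10 marker genes, at most 4 called genes per list and line by smallest adjusted p, and the 3 genes of most like pattern, by correlation) were chosen with earlier results of these data known. Alternatives were DESeq2 1.42.0, RLE factors, no filter on low counts, each line alone, robust estimation, a threshold of 0.05, the replicate number as a block and each library left out, and, added after seeing the data, a block by the number in the column names and levels per kb of unshared exon. Promoter sequences came from RefSeq (GRCh38.p14) and equalled GRCh38 at all 15 start sites. Some genes covered by these rules are not reported here.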

Additional observations from a re-analysis of the deposited data

Results flagged for a closer look

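For 9 of the named genes, edgeR's test of the difference between both changes passed (log2 fold change of CD44 KO against CD44 WT, Hs578T minus MDA-MB-231, Benjamini-Hochberg adjustment over 15836 genes). Among the marker genes these were CD24, at -2.15 on the log2 scale (SE 0.281, adjusted p = 1.60e-04), and BMI1, at -1.04 (SE 0.160, adjusted p = 7.11e-04). Of the retinoic acid pathway, RARB differed by -5.41 (adjusted p = 6.98e-06), CRABP2 by -3.77 (adjusted p = 1.32e-04) and CYP26B1 by -3.59 (adjusted p = 0.00182). CYP26B1 rests on 3 counts in Hs578T CD44 KO. Of the surface markers, NGFR differed by -3.13 (adjusted p = 4.12e-05) and ITGB3 by -2.02 (adjusted p = 0.00682), and TBX3 differed by -2.69 (adjusted p = 2.10e-05). ALDH7A1 was the exception in direction, at 0.58 (adjusted p = 0.00521). RARB, NGFR and TBX3 passed the test in each line in the fit without a block, with opposite signs. The difference of CD24, BMI1, RARB, CRABP2, NGFR and TBX3 passed in all 19 alternatives, while those of ITGB3 and ALDH7A1 were each lost in 9 of 19. Groups of 3 libraries are too small for a test of single outlying libraries.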

How the results depend on the processing

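In Hs578T the count of marker genes called moved from 1 to 2 at a threshold of 0.05 and was 1 in each leave-one-out fit (1 to 1). In MDA-MB-231 it moved from 1 to 2 at a threshold of 0.05, with DESeq2, with each line alone and with a block by column number, and to 4 without the filter on low counts, with 1 to 2 when a library was left out. The count for the difference between the lines was 2 to 2 and for the CD44 WT cells of both lines 5 to 6 when a library was left out. Of the genes of the fixed lists, 22 were called in Hs578T without the filter and 9 with the replicate block (7 to 17 with a library left out). In MDA-MB-231 they were 15 at a threshold of 0.05, 10 with DESeq2, 3 with each line alone, 14 without the filter and 0 by edgeR with the replicate block, where 23 of 88 had an unadjusted p under 0.05 (2 to 8 with a library left out). For the difference they were 14 at 0.05, 15 without the filter and 4 with the block (5 to 10), and for the CD44 WT cells of both lines 62 to 72 with a library left out. Of all genes, Hs578T gave 2253 calls at 0.05 and 1984 without the filter (605 to 1685). MDA-MB-231 gave 1518 at 0.05, 1138 with DESeq2, 315 with each line alone, 1370 without the filter and 187 with the block (355 to 763). The difference gave 1670 at 0.05, 1179 with DESeq2, 1373 without the filter and 277 with the block (396 to 804), and the CD44 WT cells of both lines 8669 to 9827.

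In Hs578T, same-numbered libraries did not deviate together (correlations over genes of -0.096 to 0.022, beside -0.119 to 0.134 for unlike numbers). In MDA-MB-231 same-numbered libraries stood at 0.008 and 0.164, beside -0.123 to 0.029 for unlike numbers, which are too few values to tell. The replicate numbers were not taken to pair the libraries. The replicate block leaves out the library without one. With this block the calls of RARB (adjusted p = 0.0692), NGFR (0.0219), TBX3 (0.0107), ENG (0.0168), TFCP2L1 (0.039) and KLF13 (0.0692) were lost in MDA-MB-231, as were those of NGFR (0.012), RDH10 (0.0169), CXCR4 (0.0134), ALDH7A1 (0.0178) and PCGF1 (0.0146) in Hs578T. The column names also carry numbers from 1 to 12, which fall into 3 sets of 4 with 1 library of each group. The labels do not say what these numbers mark. Libraries of the same set correlated at 0.031 to 0.134 in Hs578T, above those of different sets at -0.119 to 0.026. In MDA-MB-231 the ranges overlapped, at 0.008 to 0.164 within a set and -0.171 to 0.093 between sets. The fit without a block ignores these sets. With these sets as a replicate block, chosen after seeing the data, all 12 libraries stayed in, 1144 genes were called in Hs578T, 668 in MDA-MB-231 and 633 for the difference, and 7 genes of the lists in MDA-MB-231. SOX9 (adjusted p = 0.00987) and CRABP2 (0.00141) were then called in MDA-MB-231, and RARB (0.0138) and KLF13 (0.0126) were not, nor were ALDH7A1 (0.014), CXCR4 (0.0102) and PCGF1 (0.0123) in Hs578T. The calls of CD24 in Hs578T, of BMI1 in MDA-MB-231 and of both differences held in all alternatives run.

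Reversed signs occurred only for values that had not passed, and the cause was not tested. With 1 library left out, the log2 values ranged from -0.26 to 0.12 for EPCAM in MDA-MB-231, from -0.10 to 0.04 for SOX9 in Hs578T and from -0.11 to 0.02 for ENG in Hs578T. For KLF4 they ranged from -0.12 to 0.36 in Hs578T, from -0.16 to 0.35 in MDA-MB-231 and from -0.30 to 0.23 for the difference (0.09 with the block). For MDA-MB-231 they ranged from -1.15 to 0.26 for ALDH1L2 and from -0.13 to 0.10 for RDH10 (0.04 with the block, 0.03 without the unnumbered library). No log2 values were compared for EPCAM and ALDH1A3 in Hs578T or for differences that rest on groups of 3 or fewer counts. At this depth 0 counts over a group allow 0.0735 to 0.0852 CPM, which limits what can be said of ALDH1A1, ALDH1A2, PROM1 and SOX2.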

Other observations

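Among the marker lists that were read only to check the identity of the cells, 2 of 4 tested genes of basal cells fell in Hs578T CD44 KO. Of all tested genes, 3.86% were called lower there. In MDA-MB-231 edgeR called 0 of these 4, of which 1 had a fold. From the epithelial list 9 genes were tested, and 1 was called higher and 1 lower in Hs578T CD44 KO and 1 lower in MDA-MB-231 CD44 KO. From the mesenchymal list 8 were tested, and 2 were called higher in Hs578T CD44 KO and 1 in MDA-MB-231 CD44 KO. From the endothelial list 3 were tested, and 1 was called higher in each line. Of all tested genes, 3.64% were called higher in Hs578T, and 1.97% higher and 2.65% lower in MDA-MB-231. TP63, the basal cell factor, averaged 14.6 ± 5.43 CPM in Hs578T CD44 WT and 0.826 ± 0.358 CPM in CD44 KO (log2 fold change -4.08, SE 0.356, adjusted p = 7.00e-06 by edgeR), and the basal keratin KRT17 had 181 and 48 counts (-1.95, adjusted p = 0.00727). TWIST1, a factor of mesenchymal transition, rose there from 1.47 ± 0.578 to 25.3 ± 2.39 CPM (4.07, SE 0.242, adjusted p = 1.10e-06) and had 0 counts in the 6 MDA-MB-231 libraries. VIM rose in both lines. It went from 3862 ± 131 to 5041 ± 119 CPM in Hs578T (0.38, adjusted p = 0.00386), and its MDA-MB-231 levels were 4896 ± 178 and 6609 ± 566 CPM (0.43, adjusted p = 0.00253). The endothelial receptor gene KDR rose from 5.97 ± 1.87 to 11.9 ± 1.67 CPM in MDA-MB-231 (1.00, adjusted p = 0.00985), and in Hs578T it had 3 counts before and 58 counts after CD44 loss, an 18.4-fold higher level (95% counting interval 5.98 to 91.7). These genes were named after their values were seen. No alternative fits are given for them, and the adjusted p values of KDR in MDA-MB-231 and KRT17 in Hs578T lie near the threshold of 0.01.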
